A study of Mus musculus with 6 samples.

Results

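The 39 genes described here build ribosomes. They comprise subunits and cofactors of RNA polymerase I (Pol I), the core proteins of small nucleolar ribonucleoproteins (snoRNPs), the processing factors of both ribosomal subunits and the abundant nucleolar proteins, and were chosen by name from these roles. All 39 were found by their Ensembl identifier among the 38293 genes counted, and all 39 were among the 14396 genes with enough reads to be tested. The cells were the Lin-cKit+ fraction of the fetal liver (FL), which lacks lineage markers, carries c-Kit and holds hematopoietic stem and progenitor cells, and were sorted per the methods of the study. The labels give the embryos as C57BL/6 at embryonic day 14.5. The 3 libraries of wt cells and the 3 of hnRNP L deficient cells (VavCre+hnRNP L fl/fl) each came from a single embryo. In the deficient embryos a Cre recombinase under the Vav promoter removes the floxed *Hnrnpl* alleles in hematopoietic cells. The labels give the controls only as wild-type, and the study describes the wt Lin-cKit+ samples of its RNA-seq as L fl/fl in one legend. The tissue entry of the labels reads whole embryo, while the source entry names fetal liver cells. The comparison bears on the question whether the nucleolus, as a possible input to p53, is altered at the RNA level in hnRNP L deficient cells.

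Pol I transcribes the ribosomal DNA repeats in the nucleolus into one long precursor RNA. Many box C/D and box H/ACA snoRNPs modify this precursor, and large assemblies of processing factors cleave it and package it with ribosomal proteins into the small and the large subunit. Dividing progenitors need this supply of ribosomes, many of the genes involved are known targets of the transcription factor Myc, and a disturbed nucleolus releases ribosomal proteins that bind Mdm2, the ubiquitin ligase that keeps p53 low.

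Myc and related factors bind the E-box CACGTG, so the promoters of the 39 genes were searched for these letters, which read the same on both strands. RefSeq promoter windows of GRCm38.p6, with 250 bases before and 50 bases after the start site, were found for 30 of the genes (37 windows). The letters occurred in 6 of these genes (20%), against 8.09% of all 27025 genes and 7.15% of all 32851 windows in the table. The stretches are shown because they mark the members for which this motif lies within the window searched, with the E-box in capitals. Each is read 5′ to 3′ on the strand of its gene. The 9 members without a window were not searched.
Nop2, chr6:125131811-125131840, plus strand, E-box beginning 60 bases before the start: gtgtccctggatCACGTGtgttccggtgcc
Rrn3, chr16:13780472-13780501, plus strand, 215 bases before: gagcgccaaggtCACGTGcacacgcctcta
Rrn3, chr16:13780639-13780668, plus strand, 48 bases before: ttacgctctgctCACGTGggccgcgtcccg
Wdr43, chr17:71616220-71616249, plus strand, 17 bases after: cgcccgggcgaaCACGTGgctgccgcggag
Mybbp1a, chr11:72441355-72441376, plus strand, 40 bases after: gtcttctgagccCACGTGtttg
Pes1, chr11:3963965-3963994, plus strand, 2 bases after: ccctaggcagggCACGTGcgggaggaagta
Utp20, chr10:88826765-88826789, minus strand, 37 bases after: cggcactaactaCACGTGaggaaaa
Of the 6 genes, *Nop2*, *Rrn3*, *Wdr43* and *Mybbp1a* were called higher in hnRNP L deficient cells and *Pes1* and *Utp20* were not. That is 4 of 6, near the share of all members, of which 23 of 39 (59.0%) were called higher. A link between the motif and the change was not tested. A match of letters is a description and does not show that a factor binds there.

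Reads counted on genes numbered 55952160 to 76157226 per library. The CPM of genes are read counts made comparable between libraries by their size and composition. By size alone, 3 reads are worth 0.0394 to 0.0536 CPM. The lowest wt mean of any of the 39 genes was 48.9 CPM. *Hnrnpl* itself was at 552, 531 and 528 CPM in wt replicates 1 to 3 and at 242, 288 and 269.5 CPM in the 3 deficient ones (log2 fold change -1.01 ± 0.09 (SE), adjusted p = 0.00724). The groups did not overlap, and reads on *Hnrnpl* remained in the deficient libraries. The study raises incomplete deletion with residual hnRNP L protein as a possibility. It also shows by PCR that floxed parts of the gene were deleted in the fetal liver, and reports less efficient ablation in adult bone marrow. Counts over the whole gene do not separate reads of a deleted allele from those of an intact one, so they do not measure the deletion. Genes were tested with edgeR's quasi-likelihood test with Benjamini-Hochberg adjustment over all 14396 genes, and called at an adjusted p under 0.05. An exact permutation test of a single gene in 3 against 3 libraries cannot go below p = 0.1, so the calls rest on the spread shared across genes. Values in brackets after a gene name are log2 fold changes of hnRNP L deficient over wt.

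The mean of every one of the 39 genes was higher in the hnRNP L deficient libraries. The test called 23 of them higher (59.0%) and 0 lower, while of all genes tested 19.2% were called, 9.32% higher and 9.85% lower. The log2 fold changes ran from 0.16 to 0.96 with a median of 0.48, a ratio of means of 1.12 to 1.95 with a median of 1.39, beside a median log2 fold change of -0.026 over all genes tested. No member changed more than 2-fold. In 37 of the 39 genes all 3 hnRNP L deficient libraries lay above all 3 wt libraries, the exceptions being *Gnl2* and *Gnl3*. Over all genes tested 45.5% did not overlap between the groups, 22.7% with hnRNP L deficient libraries above and 22.7% with them below. In bulk RNA a different mix of cells and a different amount of RNA per cell cannot be told apart.

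**Figure D1:**
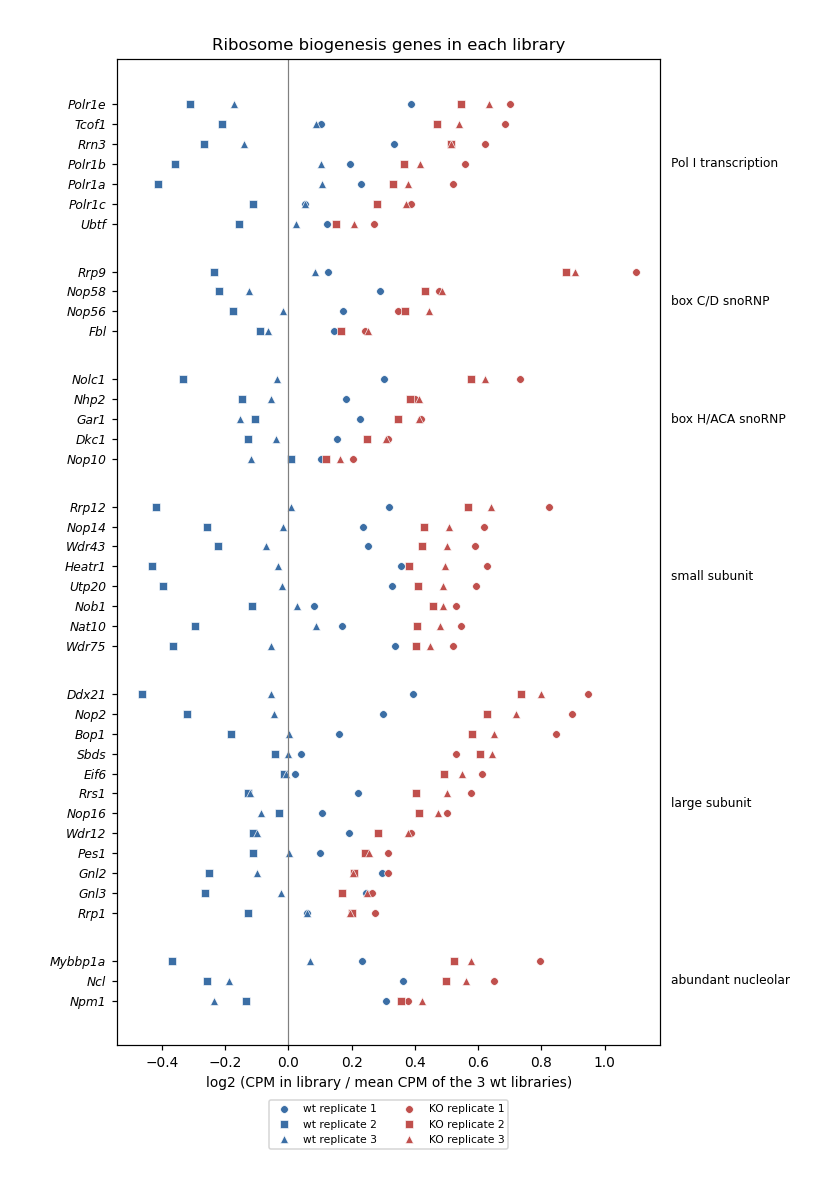
Level of each of the 39 genes in each of the 6 libraries (x axis: log2 of CPM over the mean CPM of the 3 wt libraries), grouped by role and ordered by fold change. Blue points are wt and red points hnRNP L deficient replicates, and the red points lie to the right of all blue points in every gene except *Gnl2* and *Gnl3*.

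The levels of the whole group were added up per library. The 39 genes summed to 18961, 13375 and 14723 CPM in wt replicates 1 to 3 and to 23153, 21167 and 22087 CPM in the deficient replicates 1 to 3, which is 1.34% to 1.90% of the scaled reads against 2.12% to 2.32%. The groups did not overlap, and the wt libraries were further apart than the deficient ones. Wt replicate 1 was the highest wt library in 38 of the 39 genes and wt replicate 2 the lowest in 35, so the members were high together in one wt embryo and low together in another. Among the hnRNP L deficient libraries replicate 1 was the highest in 33 genes and replicate 2 the lowest in 34. How often these orders occurred over all genes tested was not counted, so they are not shown to be particular to the members. The median coefficient of variation of the members was 16.4% in wt and 4.36% in hnRNP L deficient libraries, beside 11.5% and 4.16% for the 8776 tested genes over 10 CPM. hnRNP L deficient replicate 1 and wt replicate 1 share the first part of their embryo number, whose meaning is not given. Between these 2 libraries all 39 genes were higher in the deficient one, by 1.01-fold to 1.96-fold with a median of 1.22-fold. This sets single libraries side by side, and the share of all genes tested that was higher in this pair was not counted.

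Of the 7 genes that act in Pol I transcription, 4 were called higher. *Polr1e*, a subunit of Pol I, was measured at 63.9, 39.4 and 43.4 CPM in wt and at 79.5, 71.3 and 75.9 CPM in the deficient replicates (log2 fold change 0.63 ± 0.18 (SE), adjusted p = 0.0484). Wt replicate 1 lay well above the other two and still below all deficient libraries. *Tcof1*, which encodes the nucleolar protein treacle and promotes ribosomal DNA transcription, was at 247, 199 and 244 CPM against 369, 318 and 334 CPM (log2 fold change 0.57 ± 0.11 (SE), adjusted p = 0.0208). *Rrn3*, the initiation factor that brings Pol I to its promoter, was at 160.2, 106 and 115 CPM against 195, 181 and 181 CPM (log2 fold change 0.55 ± 0.15 (SE), adjusted p = 0.0478). In both genes the groups were apart, and in *Rrn3* wt replicate 1 was again the closest to the deficient libraries. *Polr1c*, a subunit that Pol I shares with Pol III, was the other gene called (log2 fold change 0.35, adjusted p = 0.0263). *Ubtf*, which encodes the factor UBF that opens ribosomal DNA chromatin and had the highest level per kilobase of the 7, was at 473, 389.8 and 442 CPM against 524, 483 and 502 CPM. Its log2 fold change of 0.21 had a 95% interval of -0.01 to 0.43 and missed the threshold (adjusted p = 0.15), as did the largest subunits *Polr1a* (0.41, adjusted p = 0.113) and *Polr1b* (0.45, adjusted p = 0.0702).

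Many, though not all, box C/D snoRNPs guide methylation of the precursor, and 2 of the 4 genes of this role were called higher. *Rrp9* (chr9:106475963-106485424 on the plus strand of GRCm38), a protein specific to the U3 snoRNP, was at 96.8, 75.4 and 94.1 CPM in wt and 190.0, 163 and 166 CPM in the deficient replicates. The lowest deficient library exceeded the highest wt library by 1.68-fold, and the fold change was the largest of the 39 genes (log2 fold change 0.96 ± 0.12 (SE), adjusted p = 0.0103). *Nop56*, a core protein, was at 579, 455 and 507 CPM against 653, 663 and 698 CPM (log2 fold change 0.39 ± 0.10 (SE), adjusted p = 0.0425). Its partner *Nop58*, the gene with the highest level per kilobase of the 4, was at 605, 426 and 455 CPM against 688, 668 and 693 CPM without overlap and was not called (log2 fold change 0.46 ± 0.14 (SE), adjusted p = 0.0544). The methyltransferase *Fbl* had a log2 fold change of 0.22 (adjusted p = 0.106).

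Box H/ACA snoRNPs guide pseudouridylation, and 3 of the 5 genes of this role were called higher. *Nolc1*, which encodes the snoRNP chaperone Nopp140 and had the highest level per kilobase of the 5, was at 658, 424 and 520.5 CPM against 886, 796 and 822 CPM (log2 fold change 0.64 ± 0.16 (SE), adjusted p = 0.0338). *Nhp2* and *Gar1*, core proteins of the particle, were the others called. *Nhp2* was at 193, 154 and 164 CPM against 225, 222 and 226 CPM (log2 fold change 0.40 ± 0.10 (SE), adjusted p = 0.0321) and *Gar1* at 151, 119.7 and 116 CPM against 172, 164 and 172 CPM (log2 fold change 0.39 ± 0.11 (SE), adjusted p = 0.0475). The pseudouridine synthase *Dkc1* (0.29, adjusted p = 0.0654) and *Nop10* (0.16, adjusted p = 0.177) were not called, and *Nop10* had the smallest change of all members, with an interval of -0.02 to 0.35.

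Of the 8 factors of the small subunit, 5 were called higher. *Rrp12*, which takes part in export and processing of the subunit, was at 157, 94.4 and 127 CPM against 224, 187 and 197 CPM (log2 fold change 0.68 ± 0.18 (SE), adjusted p = 0.0405). *Nop14*, a component of the small subunit processome, was at 145, 103 and 122 CPM against 189.7, 166 and 176 CPM (log2 fold change 0.52 ± 0.13 (SE), adjusted p = 0.0347). *Wdr43*, a processome protein that also had the highest level per kilobase of the 8, was at 394, 284 and 315 CPM against 498, 444 and 469 CPM (log2 fold change 0.51 ± 0.13 (SE), adjusted p = 0.0374). In all 3 genes wt replicate 1 came closest to the deficient libraries and wt replicate 2 was furthest from them. The endonuclease *Nob1* (0.49, adjusted p = 0.0146) and the RNA acetyltransferase *Nat10* (0.48, adjusted p = 0.0412) were the others called. The processome proteins *Utp20* (0.50, adjusted p = 0.0807), *Heatr1* (0.51, adjusted p = 0.0996) and *Wdr75* (0.46, adjusted p = 0.0909) were not called. Their changes were similar to those of *Nob1* and *Nat10*, with more spread among wt libraries. The called gene *Rrp12*, with a larger change, had a wt coefficient of variation of 24.9%, beside 24.7% in *Utp20*, 27.0% in *Heatr1* and 24.5% in *Wdr75*.

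The large subunit had 8 of 12 genes called higher. *Ddx21*, an RNA helicase of the nucleolus, was at 998, 552 and 732 CPM against 1465, 1265 and 1322 CPM (log2 fold change 0.83 ± 0.20 (SE), adjusted p = 0.0344). *Nop2*, an RNA methyltransferase, was at 295, 192 and 232 CPM against 446, 370.0 and 394 CPM (log2 fold change 0.75 ± 0.16 (SE), adjusted p = 0.0255). *Bop1*, which forms the PeBoW complex with Pes1 and Wdr12, was at 206, 162 and 185 CPM against 331, 275 and 289 CPM (log2 fold change 0.70 ± 0.11 (SE), adjusted p = 0.0154). Of its partners, *Wdr12* had a log2 fold change of 0.35 (adjusted p = 0.0489) and *Pes1* of 0.27 (adjusted p = 0.0511), and the difference among the 3 was not tested. Named after their values were seen, *Sbds* and *Eif6*, which act in the last step that readies the large subunit for translation, varied least between wt embryos. *Sbds* was at 70.3, 66.4 and 68.3 CPM against 98.8, 104 and 107 CPM (log2 fold change 0.59 ± 0.07 (SE), adjusted p = 0.0101), and *Eif6* at 133, 129.7 and 130.5 CPM against 200.3, 184 and 192 CPM (log2 fold change 0.55 ± 0.07 (SE), adjusted p = 0.0102). *Rrs1* (0.50) and *Nop16* (0.46), both assembly factors, were also called higher (adjusted p = 0.0285 and 0.0154). The nucleolar GTPase *Gnl3* (nucleostemin), with the highest level per kilobase of the 12, was at 402, 282 and 333 CPM against 407, 381 and 402 CPM with overlapping groups (log2 fold change 0.23 ± 0.13 (SE), adjusted p = 0.241). Its relative *Gnl2* (0.24, interval -0.08 to 0.57, adjusted p = 0.243) overlapped too, and *Rrp1* (0.22, adjusted p = 0.0903) was not called.

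The abundant nucleolar proteins carried much of the summed level. *Npm1* (nucleophosmin) had the highest level per kilobase of all members in wt, 1711 CPM per kilobase, followed by *Ncl* (nucleolin) at 439, and *Polr1e* was lowest at 16.4. *Npm1* was at 3463, 2547 and 2375 CPM in wt and 3629, 3578 and 3741 CPM in the deficient replicates (log2 fold change 0.38 ± 0.15 (SE), adjusted p = 0.101), and *Ncl* at 4626, 3012 and 3164 CPM against 5645, 5089 and 5315 CPM (log2 fold change 0.57 ± 0.17 (SE), adjusted p = 0.0535). Neither was called although the groups did not overlap, with wt replicate 1 far above the other wt libraries in both. *Mybbp1a*, a nucleolar protein that binds p53 and Myb, was at 999.5, 659 and 892 CPM against 1477, 1222 and 1269.8 CPM and was called (log2 fold change 0.64 ± 0.16 (SE), adjusted p = 0.0369). *Ncl* and *Npm1* together made up 37.6% to 42.7% of the summed CPM, and without them the sum was 7817 to 10873 CPM in wt and 12500.0 to 13880 CPM in the deficient libraries.

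**Figure D2:**
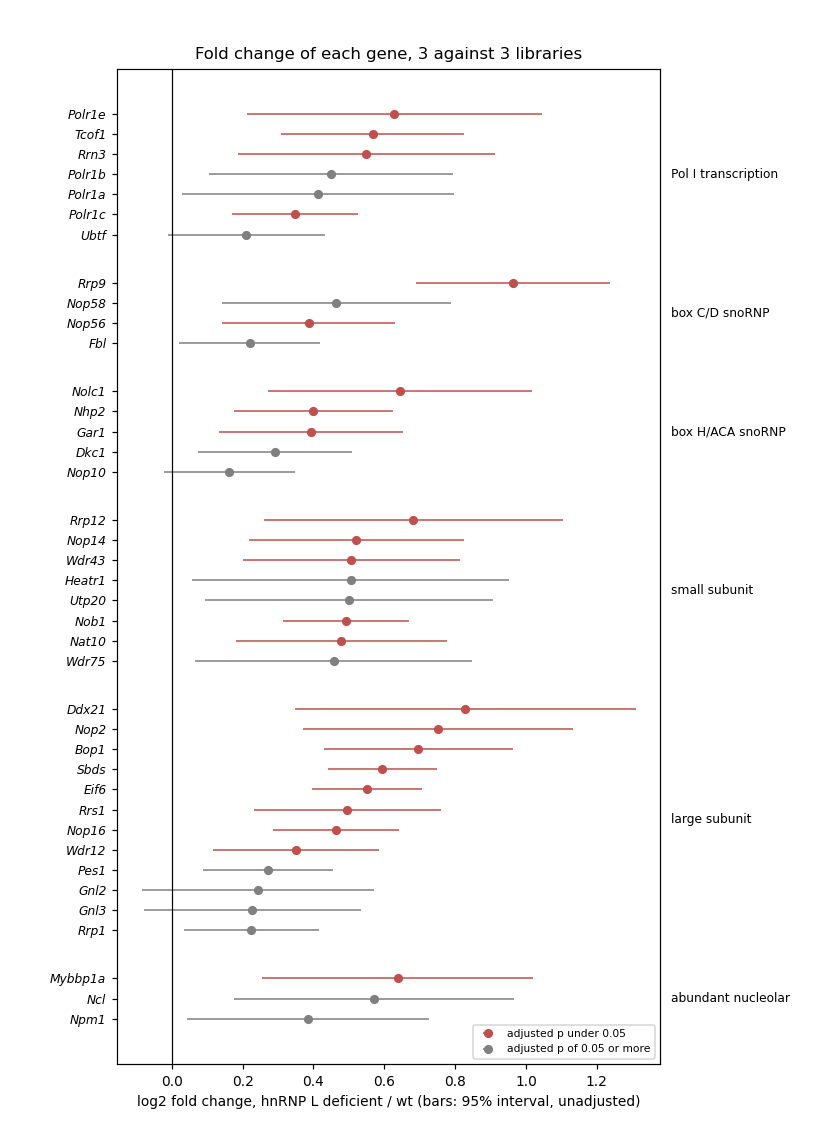
Fitted log2 fold change of each gene, hnRNP L deficient over wt (x axis), with its unadjusted 95% interval from 3 against 3 libraries, grouped by role. All 39 points lie above 0, 35 of the intervals exclude 0, and the 23 red points are genes with an adjusted p under 0.05.

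The border between called and not called was narrow. The 16 genes not called had log2 fold changes of 0.16 to 0.57 and adjusted p of 0.0511 to 0.243, and 3 of them were under 0.06. Of the 23 genes called, 7 had an adjusted p between 0.04 and 0.05. Called genes had a median log2 fold change of 0.55 and a median wt coefficient of variation of 14.3%, against 0.34 and 19.4% for the rest. Unadjusted, 35 of the 39 genes had p under 0.05, all of them higher. Of all 14396 genes tested, 2529 were higher and 2888 lower at that limit.

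Other genes of the same processes, listed by role, were counted in the same test. Of 102 further ribosome biogenesis genes 101 were tested, 60 were called higher (59.4%) and 1 lower, and 85 were without overlap in favour of the deficient libraries. Their median log2 fold change was 0.44. In Pol I transcription 3 of 10 genes were called higher, *Taf1a* (0.58) and *Tbp* (0.54) of the promoter selectivity factor and the Pol I subunit *Cd3eap* (0.54). In the small subunit 27 of 44 were called higher, with *Bysl* (0.81), *Utp4* (0.78) and *Nol10* (0.77) the largest. In the large subunit 30 of 47 were called higher, led by *Urb1* (0.79), *Wdr74* (0.74) and *Ddx56* (0.70). The 1 gene called lower was *Ddx50*, a paralog of *Ddx21*, at 81.9, 87.4 and 76.2 CPM in wt and 68.4, 69.1 and 65.7 CPM in the deficient replicates (log2 fold change -0.27 ± 0.07 (SE), adjusted p = 0.0436).

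**Figure D3:**
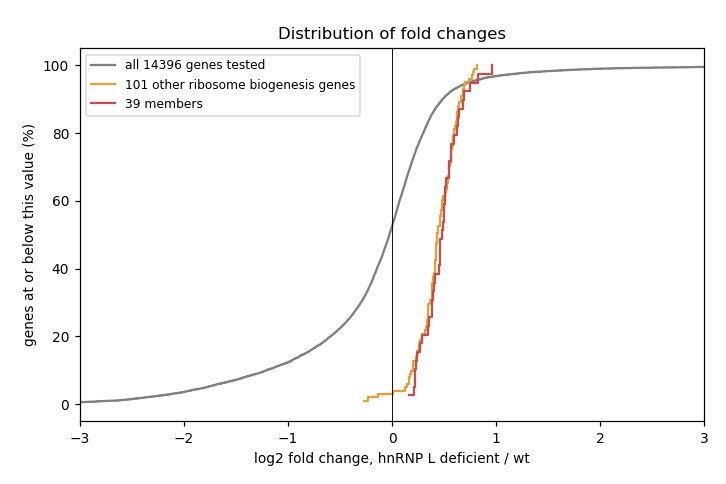
Cumulative share of genes (y axis, percent) at or below each log2 fold change of hnRNP L deficient over wt (x axis). The 39 members and the 101 other ribosome biogenesis genes are shifted to the right of all 14396 genes tested over most of the range, with medians of 0.48, 0.44 and -0.026.

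The ribosomal proteins that signal to p53 were not called. *Rpl5* was at 876, 889 and 769 CPM in wt and 778, 778 and 793 CPM in the deficient replicates, with overlapping groups (log2 fold change -0.11 ± 0.08 (SE), adjusted p = 0.38, interval -0.31 to 0.09). *Rpl11* was at 657, 628 and 563 CPM against 625, 628 and 643 CPM (log2 fold change 0.04 ± 0.08 (SE), adjusted p = 0.781, interval -0.16 to 0.24), and the sign of its change turned with total-count scaling (-0.033) and without wt replicate 3 (-0.022). *Trp53*, which encodes p53, was at 314, 289 and 338 CPM against 366, 339.9 and 335 CPM (log2 fold change 0.14 ± 0.09 (SE), adjusted p = 0.262). The study reports more p53 protein in deficient fetal liver cells, with neither the level nor the half-life of p53 mRNA increased. Protein is not measured in these libraries. Of the 6 genes tested in this list only *Mdm2*, itself a p53 target, was called, at 59.2, 63.8 and 57.2 CPM against 99.1, 117 and 119 CPM (log2 fold change 0.90 ± 0.09 (SE), adjusted p = 0.00985). Of 24 p53 target genes, some of which the study named from these same libraries, 16 were called higher and 1 lower, beside 9.32% and 9.85% of all genes tested. The largest rises were *Plk2* (6.28, from 0.504, 0.0667 and 0.0413 CPM in wt, where 2 libraries were near the worth of 3 reads, and 8.13 without wt replicate 1), *Eda2r* (5.75) and *Cdkn1a* (4.26, and 4.87 without wt replicate 2), which encodes the cell cycle inhibitor p21 and was at 2.2, 6.47 and 2.75 CPM in wt and 57.0, 75.2 and 85.9 CPM in the deficient replicates (adjusted p = 0.0125), and *Sesn1* was lower (-0.75). These are RNA levels of the same libraries, and whether the nucleolus acts on p53 in these cells was not tested.

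**Figure D4:**
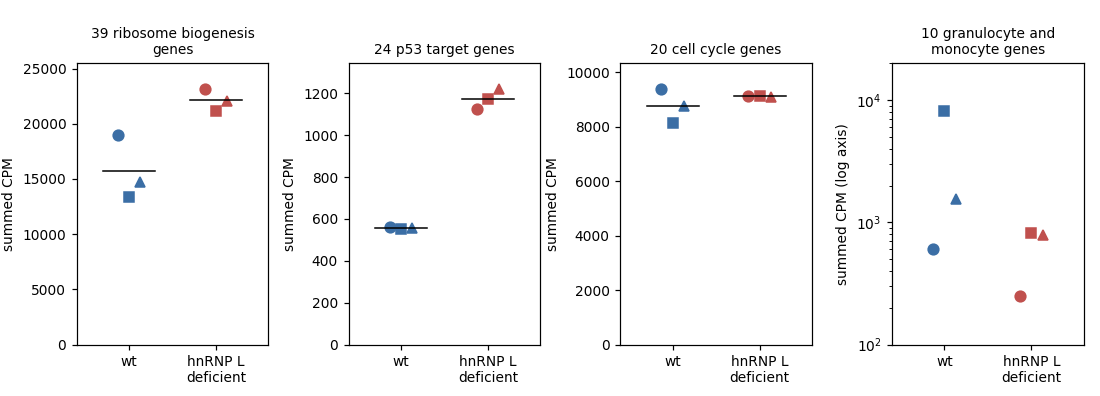
Summed CPM of 4 gene lists in each library (y axis, from 0 except for the log axis of granulocyte and monocyte genes), with bars at group means in the first 3 panels and the shapes circle, square and triangle for replicates 1, 2 and 3. The 39 members and the p53 targets were apart between the groups, the cell cycle genes overlapped, and wt replicate 2 stood apart in granulocyte and monocyte genes.

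Marker genes of the sorted cells and of other cell types were summed per library. Of the 7 progenitor markers 4 were called lower, *Kit* (-0.62), *Cd34* (-2.21), *Cd48* (-1.64) and *Cd93* (-2.58), and the list summed to 1400.3 to 1819.7 CPM in wt and 1173 to 1305 CPM in the deficient libraries. Granulocyte and monocyte markers summed to 610.1, 8168 and 1539 CPM in wt and 252, 823 and 787 CPM in the deficient replicates, with 1 of 10 called lower. Hepatocyte markers summed to 108 to 232 CPM and 21.0 to 71.6 CPM (1 of 7 called lower), erythroid markers to 2459 to 2873 and 2317 to 2976 CPM (1 of 10 lower), and lymphoid markers to 2.0 to 10.1 and 0.202 to 0.627 CPM (3 of 4 tested lower). Megakaryocyte markers summed to 77.1 to 131 and 64.9 to 87.7 CPM (1 of 6 lower), endothelial markers to 27.6 to 73.1 and 14.8 to 15.9 CPM (3 of 5 lower), and mast cell and basophil markers to 20.6 to 83.4 and 12.9 to 44.9 CPM (0 of 4 tested called). Over all genes tested 9.85% were called lower, so 1 of 10 is near that share. Called or not, log2 fold changes were below 0 in all 10 granulocyte and monocyte genes (median -2.49) and all 7 hepatocyte genes (median -1.60). In all 7 hepatocyte genes the deficient libraries lay below all wt libraries, beside 22.7% of all genes tested. Changes were below 0 in 5 of 10 erythroid, 4 of 6 megakaryocyte and 6 of 7 progenitor genes. The share of all genes tested below 0 was not counted, and their median log2 fold change was -0.026. The part of this cell mix in the difference of the ribosome biogenesis genes was not tested. Without wt replicate 2, the library with the most granulocyte and monocyte RNA, 22 of the 39 genes were called higher and the median log2 fold change was 0.35.

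The calls depended on single libraries. Without wt replicate 1, 36 of the 39 genes were called higher, and without wt replicate 3 or any single hnRNP L deficient library 0 were. In those 4 fits only 5 to 15 genes of the whole table were called higher and 0 to 2 lower, and 26 to 31 of the 39 had an unadjusted p under 0.05. Of the 14659 to 14845 genes tested in them, 1745 to 2276 were higher and 1938 to 2668 lower at that unadjusted limit. All 39 log2 fold changes were above 0 in each of the 14 fits run, with medians of 0.35 to 0.58. These fits reuse the same libraries, and in 37 of the genes the groups did not overlap, so a sign could hardly turn.

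**Figure D5:**
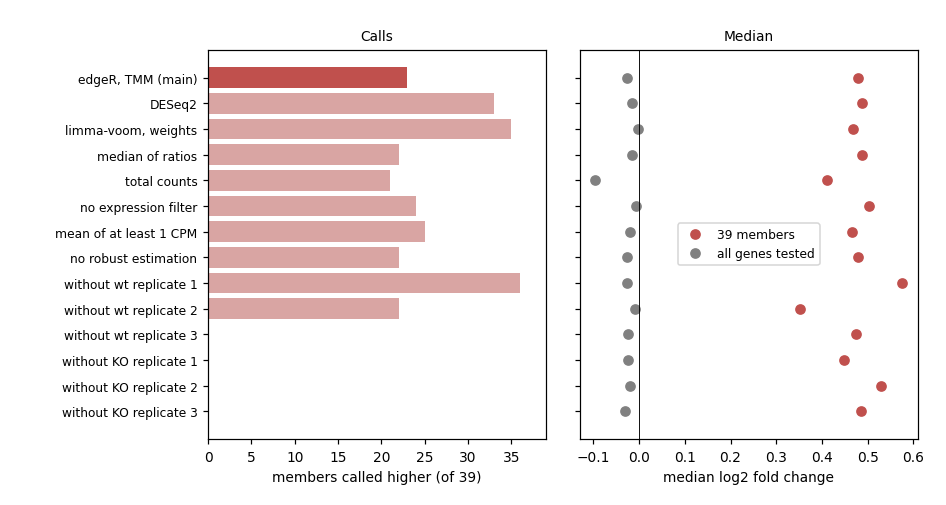
Number of the 39 genes called higher (left, x axis) and median log2 fold change of the 39 genes and of all genes tested (right, x axis) under the reported analysis and 13 alternatives. Calls ran from 0 to 36, while the median of the members stayed between 0.35 and 0.58.

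The exon bin counts of 5 libraries, 3 wt and 2 hnRNP L deficient, gave a second readout, the use of each exon bin relative to the rest of its gene. Of 961 bins listed for the members 925 were tested, in 38 genes, since *Rrs1* has a single bin. None of the 925 was called with edgeR's diffSpliceDGE, where 0.0288% of all 176996 bins tested were called, and 5 (0.541%) had an unadjusted p under 0.05 against 1.03% of all bins. In limma's diffSplice 0 were called and 16 had an unadjusted p under 0.05. Tested bins had a median of 1026 reads, and 894 of the 925 (96.6%) changed in use by less than 1.5-fold, beside 92.2% of all bins. The smallest p was that of bin 12 of *Nop16* (log2 change of -0.82), and bin 12 of *Gnl2* had the largest change, 1.65, at a mean of only 16.4 reads.

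Some counts may include reads of other genes or miss reads that align to more than 1 place. *Npm1* and *Nop56* each had 5 annotated pseudogenes whose transcripts match theirs at 95% identity or more over at least 200 bases, *Pes1* had 2, and *Fbl*, *Wdr12* and *Ddx21* had such matches too. The annotation places 5 snoRNA genes within *Nop56*, 4 within *Nop58*, 3 each within *Wdr43*, *Gnl3* and *Ncl* and 1 within *Dkc1*, and 15 of the members overlap a gene on the opposite strand. Reads that were not uniquely aligned, 39.8% to 44.7% per library, were listed apart from the gene counts. How the counting treated strand is not given in the sources used here.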

How the data were processed

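Single-embryo libraries of Lin-cKit+ FL cells, 3 wt and 3 hnRNP L deficient, were prepared as stranded mRNA and sequenced as paired ends. The authors aligned reads to GRCm38 with TopHat2 2.0.10, counted them per Ensembl gene with HTSeq and per exon bin, and deposited raw counts. The Ensembl release and the counting options are not given in the sources used here. Rows for unassigned reads were left out of library sizes; 39.8% to 44.7% of all reads per library were not uniquely aligned and 5.87% to 8.37% fell on no gene. The 39 members and the other gene lists were chosen with earlier results of these data known, so the counts over them are descriptions. No 2 libraries held identical counts.

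From the counts, TMM-normalized libraries were compared with edgeR 4.0.16 (quasi-likelihood test, robust, default expression filter, adjusted p under 0.05; R 4.3.3). SE is the log2 fold change over the square root of F. Use of exon bins averaging 10 or more reads was tested by diffSpliceDGE in 5 libraries, and the bins of the first hnRNP L deficient replicate are not analysed here. Steps were tested on simulated data. Levels per kilobase used the shortest principal coding transcript of GENCODE, near-identical copies were found with blastn 2.17.0, and *Riok2* was the 1 listed gene not matched. Named in full were, per role, up to 3 called members with the largest change and the member highest per kilobase, and up to 3 called genes per other list and direction, with *Myc*, *Trp53*, *Mdm2*, *Rpl5*, *Rpl11*, *Cdkn1a* and *Hnrnpl* always given. Alternatives were DESeq2 1.42.0, limma-voom 3.58.1 with sample weights, other scalings and filters, no robust estimation, each library left out, and for bins limma's diffSplice and a minimum of 50 reads.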

Additional observations from a re-analysis of the deposited data

How the results depend on the processing

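The direction of the 39 genes held in every fit, while the number called did not. All fits drew on the same libraries, and in 37 of the genes the groups did not overlap. Leaving out 1 library could therefore hardly turn a sign, and the shared direction is not independent evidence. Against 23 members called higher in the reported analysis, 35 were called with limma-voom, and leaving out each library in turn gave 0 to 36. With DESeq2, median-of-ratios factors, total counts, no filter, a mean of at least 1 CPM and no robust estimation the count was 21 to 33. Members lower were 0 throughout, and 20 of the 23 calls were kept without wt replicate 2. Across the 13 alternatives, the 507 values of single members were never of opposite sign, 41 passed the threshold newly and 100 no longer passed it. Over the whole table, 1341 genes higher and 1418 lower became 2064 and 2236 with DESeq2 and 2537 and 2751 with limma-voom. Leaving out a library gave 5 to 2312 higher and 0 to 2479 lower, and total counts gave 1066 higher and 1751 lower. The cause was not tested, beyond the fewer libraries in each left-out fit. *Rpl11*, near 0 in the reported analysis, turned to -0.033 with total counts and ran from -0.022 (without wt replicate 3) to 0.090 with a library left out. The count of 0 member exon bins called was the same in all 7 alternatives. No paired analysis was possible because the groups share only 1 embryo number prefix, between wt replicate 1 and hnRNP L deficient replicate 1. The effect of depth on the calls was not tested.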

Other observations

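*Myc* itself was at 412, 337 and 470.4 CPM in wt replicates 1 to 3 and at 603, 517 and 549.6 CPM in the deficient replicates 1 to 3. The groups did not overlap and the change missed the threshold (log2 fold change 0.45 ± 0.13 (SE), adjusted p = 0.0539). Of 10 tested genes of the Myc network, *Mlx*, a partner of the Mondo proteins, was called higher (log2 fold change 0.33), and *Mycn* (-1.07) and the Myc antagonist *Mxd4* (-1.92) were called lower. *Mxd4* was at 15.3, 53.1 and 33.0 CPM against 8.71, 9.67 and 8.36 CPM, with wt replicate 2 the highest. Of 20 cell cycle genes 3 were called higher and 0 lower, with a median log2 fold change of 0.08. Of all genes tested 9.32% were called higher and 9.85% lower, which also applies to the Myc network. The 3 cell cycle genes called were the ribonucleotide reductase subunit *Rrm2* (0.64), *Cdc20* (0.30), an activator of the anaphase-promoting complex, and the replication helicase subunit *Mcm5* (0.26). In the same test with total-count scaling *Cdc20* (adjusted p = 0.055) and *Mcm5* (adjusted p = 0.0699) were not called. The list summed to 9384, 8141 and 8752 CPM in wt and 9118, 9134 and 9075 CPM in the deficient replicates, within the range of the wt libraries.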
